A study of Rattus norvegicus with 9 samples.

Results

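The histone lysine demethylases described here are 10 rat genes of the Jumonji C (JmjC) class: Kdm2a, Kdm2b, Kdm3a, Kdm3b, Kdm4a, Kdm4b, Kdm4c, Kdm5b, Kdm6a and Kdm6b. They were taken by name, as every non-control probe whose gene name or annotated accession in the scanner files belonged to one of these genes. The Kdm3b probe bore a gene number in place of a symbol. It was assigned to Kdm3b through that number and has no genome position in the files. All 10 genes were found, on 20 of the 41012 non-control probes of the array, and all 20 probes were bright enough to be tested. After 1 probe was kept per gene, these were 10 of 22084 genes tested.

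The RNA came from smooth muscle cells of the lung artery wall (PASMCs) of male rats of the strain labelled SD, in culture at generation 4. Cells went 24 h without serum and then 24 h in medium with 10% serum, holding either quercetin, a plant flavonol, or 0.1% DMSO as vehicle. All groups were kept at 37 °C and 5% carbon dioxide. The normoxia group stayed in a normoxic incubator, the hypoxia group was held in an airtight chamber at 1% oxygen, and the hypoxia+quercetin group received quercetin in hypoxia. Each group had 3 samples, each on its own 1-colour Agilent whole-genome rat array. The labels name no dose of quercetin and no DMSO content for the group that received it. Nothing in the labels says that the replicates came from separate rats or separate cultures, so every p-value here reflects only how much these samples varied, and that variation may be technical.

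JmjC demethylases remove methyl groups from histone lysines with iron, 2-oxoglutarate and molecular oxygen, and release succinate and formaldehyde, so oxygen is one of their substrates. Family members differ in the lysine of histone H3 they act on: Kdm3 proteins act on lysine 9 (H3K9), Kdm4 proteins on H3K9 and H3K36, Kdm2 proteins mainly on H3K36, Kdm5 proteins on H3K4 and Kdm6 proteins on H3K27. Hypoxia-inducible factor (HIF), a transcription factor that builds up when oxygen is low, is known to raise several of these genes in many cell types, with Kdm3a and Kdm4b among its best known targets. The arrays measure messenger RNA, not demethylase protein, enzyme activity or histone methylation.

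Levels are given as log2 spot intensity minus the 75th percentile of the array, so 0 is the brightness of a probe at that percentile. A level of one probe is not set against that of another, because probes differ in how well they bind. Within groups the arrays correlated at 0.986 to 0.994 over probes. Between 53.0% and 74.3% of probes were well above background on an array. Normoxia replicates 1 and 2 were on 1 slide, normoxia replicate 3 shared a second slide with the hypoxia samples, and the quercetin samples had the third slide to themselves. Of 10 smooth muscle markers, 9 had a probe, each well above background on all 9 arrays, and no probe bore the name Acta2. Pecam1, Tek and Tie1 of endothelial cells, Epcam, Cdh1 and Krt19 of epithelial cells and Cd3e and Itgam of leukocytes were well above background on none. Other markers of these cells were detected: Krt7, Krt18, Cd68, Cd74 and Lyz2 on 9 arrays, Krt8, Scgb1a1, Cdh5 and Csf1r on 8, Kdr and Sftpb on 7, Ptprc on 6 and Vwf and Sftpc on 2. Of 7 fibroblast markers, 6 were detected on 9 arrays and Dcn on 7.

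Hypoxia was accompanied by higher RNA of most of these demethylases. Of the 10 genes, 8 rose against normoxia and none fell (2 were higher and 2 lower when arrays were scaled to spike-in probes). Kdm4b and Kdm2b rose most, by 1.67 ± 0.22 and 1.58 ± 0.17 on the log2 scale (SE, 3 against 3 arrays), or 3.19- and 2.99-fold. The Kdm4b probe was dim, and its place in this order depends on the background correction. With normexp, another correction, Kdm4b rose by 0.73, Kdm2b by 1.41 and Kdm3a by 1.36. Kdm3a, Kdm4c, Kdm5b, Kdm6b, Kdm6a and Kdm4a rose by 1.39 to 0.37, in that order of their changes. Kdm2a and Kdm3b did not pass the test. The background is large: in limma, at a Benjamini-Hochberg adjusted p under 0.05 over all genes, 64.2% of the 22084 genes were called in either direction, 35.3% of genes higher and 28.9% lower. The median change was 0.70 over the 10 demethylases and 0.10 over all genes. With spike-in scaling these medians were 0.20 and -0.40, and with slide as a block in the fit the demethylase median was 0.44. In 8 of the 10 genes every hypoxia array lay above every normoxia array, while 71.7% of all genes had arrays of the 2 groups that did not overlap in one direction or the other. In bulk RNA a change in cell numbers of a type and a change in RNA per cell cannot be told apart. Markers of several cell types moved beside the demethylases, and their part in these results was not tested.

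Over all genes 35.3% were called higher and 28.9% lower in hypoxia. With quercetin 26.9% were higher and 31.5% lower than in hypoxia, and 23.0% and 21.3% than in normoxia. Of 9 smooth muscle markers measured, 5 rose in hypoxia and none fell (4 and 2 under spike-in scaling), among them Des by 3.39 and Cnn1 by 1.33. Their median level was 1.57 to 2.28 on the normoxia arrays, 2.02 to 2.05 in hypoxia and 1.35 to 1.71 with quercetin, where 7 fell against hypoxia and none rose. Of 5 epithelial markers measured, the keratins Krt18, Krt7 and Krt8 rose in hypoxia, by 4.93, 3.12 and 2.15, and all 3 fell with quercetin. Under spike-in scaling 3 of the 5 were higher in hypoxia and 1 lower. The 5 had a median between -3.64 and -3.12 on normoxia arrays, between -2.56 and -2.42 on hypoxia arrays and between -3.69 and -3.62 on quercetin arrays. Of 5 leukocyte markers 3 rose in hypoxia, Lyz2 by 4.10, Csf1r by 0.70 and Cd74 by 0.34, and with quercetin these 3 fell and Cd68 rose. Under spike-in scaling 1 of the 5 was higher and 1 lower in hypoxia. Their median lay between -4.01 and -3.63, between -1.77 and -1.61 and between -3.04 and -2.56 in the same order of groups. Of 7 fibroblast markers, Dcn, Lum and Fap fell in hypoxia (-4.24, -3.63 and -1.45) and Col1a1 and Thy1 rose (0.73 and 0.38), but under spike-in scaling none of the 7 was higher and 4 were lower. The fibroblast median lay between 1.53 and 2.76, between 0.23 and 0.41 and between -1.08 and -0.74 in that order, and 6 of the 7 were lower with quercetin than in normoxia. Neither of the 2 endothelial markers measured, Cdh5 and Kdr, passed in hypoxia, and Cdh5 fell by 1.22 with quercetin. The endothelial median lay between -4.50 and -4.25, between -4.13 and -3.90 and between -5.06 and -4.17.

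**Figure D1:**
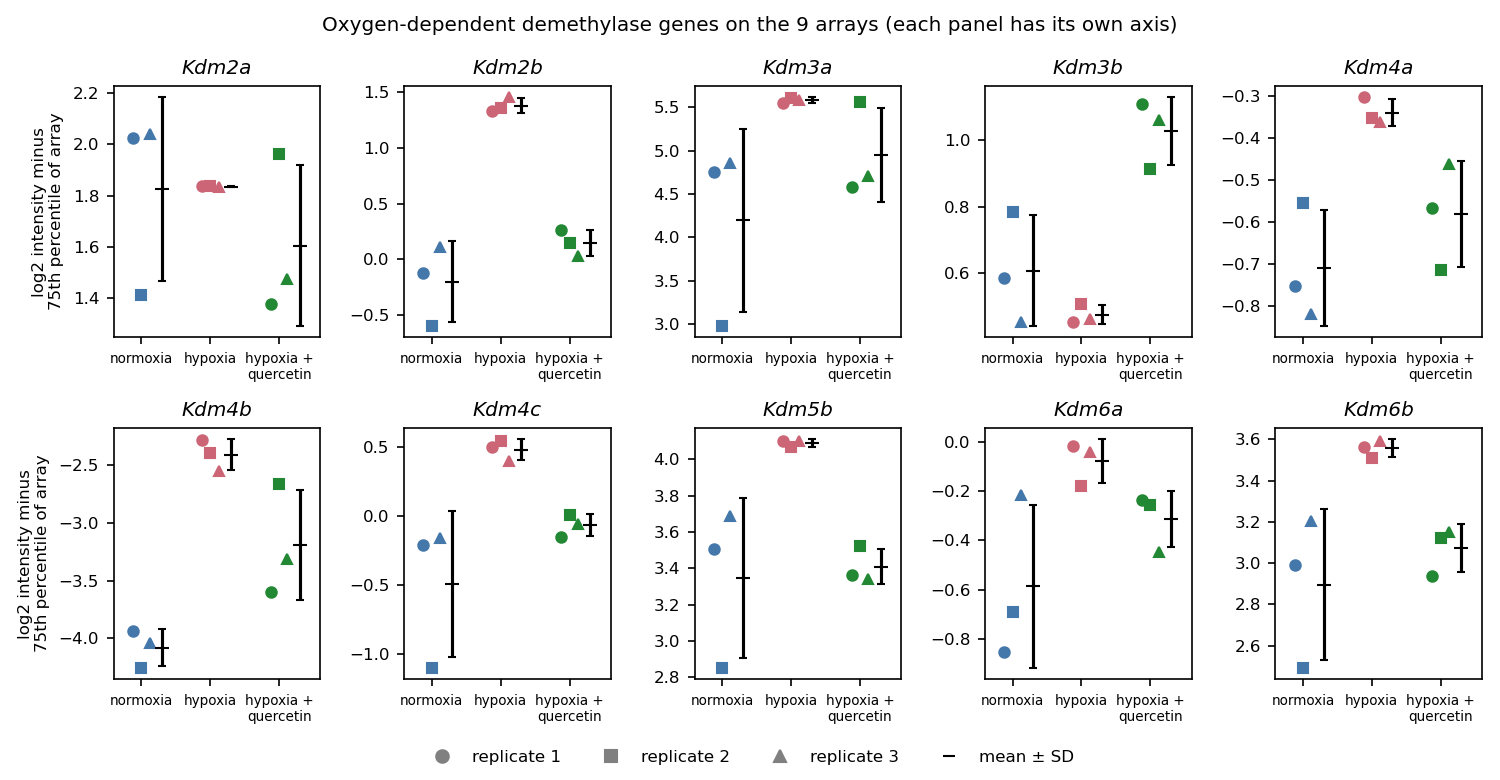
Level of each of the 10 demethylase genes on the 9 arrays, as log2 intensity minus the 75th percentile of the array (y axis, its own scale in each panel), in normoxia, hypoxia and hypoxia with quercetin. Markers give replicates 1, 2 and 3, and bars give mean ± SD of 3 arrays. The hypoxia arrays lie close together and above all normoxia arrays in 8 panels, and not in those of Kdm2a and Kdm3b.

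Among the demethylases of H3K9, Kdm3a encodes an enzyme that removes mono- and dimethylation. Its level was 4.76, 2.98 and 4.86 in normoxia and 5.55, 5.61 and 5.59 in hypoxia. Normoxia replicate 2 was far below replicates 1 and 3, and all 3 hypoxia arrays were above all normoxia arrays. The rise was 1.39 ± 0.48 (adjusted p = 0.033). It was 0.78 ± 0.27 without normoxia replicate 2 (adjusted p = 0.041), and the call was lost without hypoxia replicate 1, 2 or 3 in turn (adjusted p = 0.071, 0.073 and 0.068). The call was also lost with quantile normalization (1.10, adjusted p = 0.088) and with spike-in scaling (0.88, adjusted p = 0.12). It was kept in 11 of 23 alternatives. A second Kdm3a probe, nearer the start of the transcript, changed by 1.43 ± 0.50. Both lie on rat chromosome 4, at chr4:104866581-104866640 and chr4:104868116-104868260 on the minus strand of build rn4, the latter with its 60 bases spread over 145 bases of the genome. Kdm3b, its close relative, was at 0.59, 0.78 and 0.45 in normoxia and 0.45, 0.51 and 0.46 in hypoxia. The groups overlapped, and the change of -0.13 ± 0.10 did not pass (adjusted p = 0.29); the 95% interval ran from -0.37 to 0.11.

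Kdm4a, Kdm4b and Kdm4c encode demethylases of trimethylated H3K9 and H3K36. The probe of Kdm4b was dim: it was well above background on 8 of 9 arrays, quercetin replicate 1 being the exception. Its level was -3.94, -4.26 and -4.05 in normoxia and -2.28, -2.39 and -2.55 in hypoxia. The groups were well apart, and the rise of 1.67 ± 0.22 had an adjusted p of 0.00028. With another background correction, normexp, it was 0.73 (adjusted p = 0.038). Kdm4c was at -0.21, -1.10 and -0.16 in normoxia and at 0.50, 0.55 and 0.40 in hypoxia, with normoxia replicate 2 again the lowest array. It rose by 0.97 ± 0.23 (adjusted p = 0.0057). Kdm4a was at -0.75, -0.55 and -0.82 in normoxia and at -0.30, -0.35 and -0.36 in hypoxia. Here normoxia replicate 2 was the highest of its group. Its rise was the smallest of those called, 0.37 ± 0.10 (adjusted p = 0.013), and turned to -0.14 (adjusted p = 0.45) when arrays were scaled to spike-in probes.

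The promoters of Kdm4b, Kdm4c and Kdm3a are printed because all 3 genes rose in hypoxia while their promoters differ in how often they hold the letters known as the core of the HIF binding site. Sequences are the 250 bases before the gene start in RefSeq's GRCr8 assembly, on the strand of the gene. Capitals mark ACGTG or GCGTG on either strand (CACGT and CACGC on the opposite one), neighbours merged. Kdm4b, at chr9:1245653-1245902 on the plus strand, holds 2 matches of ACGTG, which share the palindrome CACGTG, and 2 of GCGTG.
Kdm4b: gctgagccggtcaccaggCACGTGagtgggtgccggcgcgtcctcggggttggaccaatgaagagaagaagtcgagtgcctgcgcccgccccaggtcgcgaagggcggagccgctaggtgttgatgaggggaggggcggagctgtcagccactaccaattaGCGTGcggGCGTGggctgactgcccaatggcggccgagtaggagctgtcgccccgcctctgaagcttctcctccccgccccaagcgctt
Kdm4c, at chr5:93146787-93147036 on the plus strand, holds 4 matches of ACGTG, in 2 palindromes, and 2 of GCGTG.
Kdm4c: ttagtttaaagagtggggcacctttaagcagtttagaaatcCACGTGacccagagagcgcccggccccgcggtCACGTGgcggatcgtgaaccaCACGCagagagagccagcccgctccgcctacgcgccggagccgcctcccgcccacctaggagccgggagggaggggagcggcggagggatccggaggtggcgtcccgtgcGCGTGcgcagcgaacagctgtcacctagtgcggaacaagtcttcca
Kdm3a, at chr4:105233371-105233620 on the minus strand, holds neither in this window, and the window of a second start of the gene holds 1 GCGTG.
Kdm3a: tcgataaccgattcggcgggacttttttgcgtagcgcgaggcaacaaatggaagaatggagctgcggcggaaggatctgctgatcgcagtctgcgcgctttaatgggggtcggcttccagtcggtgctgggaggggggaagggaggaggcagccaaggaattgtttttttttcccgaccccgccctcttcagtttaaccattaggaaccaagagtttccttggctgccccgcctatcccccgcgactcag

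Of all 33469 promoter windows of this length in the table, 36.7% hold either motif, 16.6% hold ACGTG and 6.2% hold 3 or more matches. Of the 9 members with a promoter in the table, 5 hold a match: Kdm4c with 6, Kdm4b with 4, Kdm5b with 2, and Kdm2b and Kdm3a with 1 each. Kdm6a has no entry there. Kdm2a, Kdm3b, Kdm4a and Kdm6b hold none, and of these Kdm4a and Kdm6b rose in hypoxia. A match is only a match of letters and does not show binding.

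The 3 probes of Kdm4c lie along the gene on the plus strand of chromosome 5 and all rose in hypoxia. Their first 30 bases are shown because a value is given for each.
Kdm4c at chr5:92143768-92143827: atgaagatttggaacgcaaatactggaaaa
Kdm4c at chr5:92213146-92215442: ctcaatgttcctaagataatagaaggacag
Kdm4c at chr5:92288689-92288748: aaattagagtttaaagaaatatacttaatg
From the start of the gene to its end, hypoxia changed them by 1.25 ± 0.15, 0.97 ± 0.23 and 0.73 ± 0.23, and each was called (adjusted p = 0.00015, 0.0056 and 0.022 over single probes). The middle probe, whose 60 bases are spread over 2297 bases of the genome, is the one used. The probe nearest the end has a GC content of 18.3%, against 35.0% and 40.0% for the others. The differences between the probes were not tested.

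Kdm2a and Kdm2b encode demethylases of H3K36 that carry a zinc finger for unmethylated CpG DNA, and Kdm2b is also part of a variant Polycomb complex. Kdm2b was at -0.12, -0.60 and 0.12 in normoxia and at 1.33, 1.36 and 1.45 in hypoxia. The groups were wide apart, and the rise was 1.58 ± 0.17 (adjusted p = 8.8e-05). Its 1 probe lies at chr12:34801567-34801626 on the plus strand of rn4. Kdm2a was at 2.03, 1.41 and 2.04 in normoxia and at 1.84, 1.84 and 1.83 in hypoxia. The hypoxia arrays fell inside the normoxia range, and the change of 0.01 ± 0.20 did not pass (adjusted p = 0.97; 95% interval -0.46 to 0.48). Its other 2 probes, at 0.31 ± 0.16 and -0.06 ± 0.17, did not pass either (adjusted p = 0.13 and 0.77).

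Kdm5b encodes a demethylase of H3K4. It was at 3.50, 2.85 and 3.69 in normoxia and at 4.10, 4.07 and 4.10 in hypoxia. All hypoxia arrays were higher, with normoxia replicate 2 once more the lowest, and the rise was 0.74 ± 0.19 (adjusted p = 0.0096). Without normoxia replicate 2 it was 0.49 (adjusted p = 0.0029). The other 2 probes of Kdm5b rose by 0.81 ± 0.15 and 0.89 ± 0.17, so all 3 probes, which lie on chr13 between 47532223 and 47575826 of rn4, were called higher.

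Kdm6a and Kdm6b encode demethylases of H3K27, the mark set by Polycomb repressive complex 2. Kdm6b was at 2.99, 2.49 and 3.20 in normoxia and at 3.57, 3.51 and 3.59 in hypoxia, again without overlap. It rose by 0.66 ± 0.17 (adjusted p = 0.0089), and its second probe by 0.59 ± 0.12 (adjusted p = 0.003 over single probes). Kdm6a, on the X chromosome, was at -0.86, -0.69 and -0.21 in normoxia and at -0.01, -0.18 and -0.04 in hypoxia. Its lowest hypoxia array, replicate 2, barely exceeded normoxia replicate 3. The rise of 0.51 ± 0.16 (adjusted p = 0.022) was lost without normoxia replicate 1 or 2 (adjusted p = 0.076 and 0.063) and without hypoxia replicate 1 or 3 (0.067 and 0.059).

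Only 1 of the 3 Kdm6a probes changed with hypoxia by the test. Their first 30 bases are printed in order along the minus strand of the X chromosome, since the call for Kdm6a rests on the first.
Kdm6a at chrX:16052833-16052892: tgtgaattcgctacgtttccatgaaatcct
Kdm6a at chrX:15912215-15912274: tgagagtaattctcgaaagacctacatagt
Kdm6a at chrX:15910669-15910728: ttgtgattttttgtttctaatcttgatgta
The first probe, the most upstream, is the one used and gave 0.51 ± 0.16. The second gave 0.22 ± 0.15 (adjusted p = 0.22) and the third, with a GC content of 16.7%, gave 0.12 ± 0.11 (adjusted p = 0.38). With the mean of the 3 probes the change was 0.28 (adjusted p = 0.05) and was not called.

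**Figure D2:**
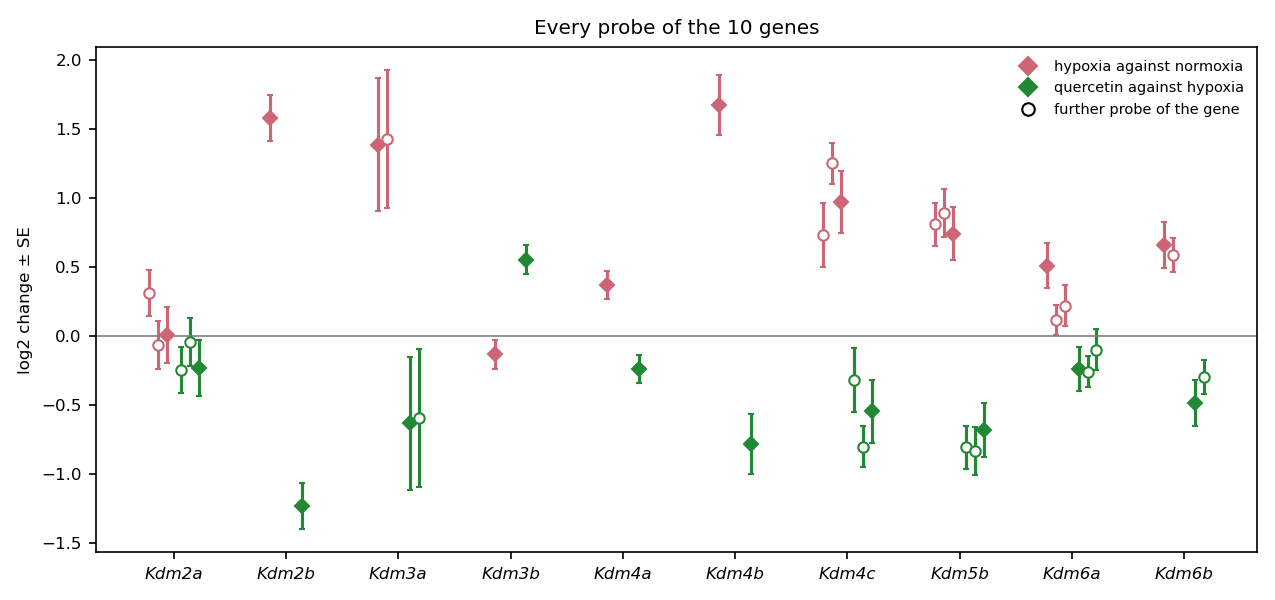
Log2 change ± SE of each of the 20 probes of the 10 genes (y axis), for hypoxia against normoxia (red) and quercetin against hypoxia (green), diamonds for the probe used and open circles for further probes. In hypoxia against normoxia 14 of 20 probes passed the test, all higher; in quercetin against hypoxia 7 passed lower and 1, of Kdm3b, higher.

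Quercetin in hypoxia was accompanied by lower RNA of 4 of the genes that hypoxia had raised, and by higher RNA of 1 that it had not. Kdm2b fell by 1.23 ± 0.17 (adjusted p = 0.00041), Kdm4b fell by 0.78 ± 0.22 (0.015), Kdm5b fell by 0.68 ± 0.19 (0.016) and Kdm6b fell by 0.48 ± 0.17 (0.036). Kdm3b rose by 0.55 ± 0.10 (0.0022). The other 5 genes did not pass. Over all genes 58.4% were called, 26.9% higher and 31.5% lower, and 71.1% had groups that did not overlap, against 8 of the 10 demethylases. The median change was -0.52 over the demethylases and -0.08 over all genes. This comparison shares the hypoxia arrays with the one before it, so a high hypoxia value by itself gives a rise there and a fall here. All quercetin samples were on the third slide and no other sample was, so slide and treatment cannot be told apart.

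For the H3K36 enzyme Kdm2b, the quercetin arrays read 0.27, 0.15 and 0.03, far below the hypoxia arrays and just above or within the normoxia range. Kdm2b is 1 of 2 members called in this comparison under all of the alternatives that gave a value, with changes from -1.29 to -1.14; the other is Kdm3b. Kdm2a read 1.38, 1.96 and 1.47, with replicate 2 above the hypoxia arrays and replicates 1 and 3 below them, and the change of -0.23 ± 0.20 did not pass (adjusted p = 0.36).

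For H3K9, Kdm3b read 1.11, 0.92 and 1.06 with quercetin, above every array of both other groups. The change was 0.55 ± 0.10, a 1.47-fold rise, and stayed between 0.41 and 0.65 under the alternatives. Kdm3a read 4.58, 5.57 and 4.71. Replicate 2 reached the hypoxia level while replicates 1 and 3 lay just below the normoxia replicates 1 and 3. The change of -0.63 ± 0.48 did not pass (adjusted p = 0.29), and its 95% interval ran from -1.74 to 0.47.

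In the Kdm4 family, Kdm4b read -3.60, -2.66 and -3.31, all below hypoxia and above normoxia, with replicate 2 the nearest to hypoxia. The fall was lost without hypoxia replicate 1 or quercetin replicate 3 (adjusted p = 0.052 and 0.051) and was -0.03 (adjusted p = 0.94) with normexp correction. Kdm4c read -0.15, 0.01 and -0.06. These arrays lay between the other 2 groups without overlap, and the change of -0.55 ± 0.23 did not pass (adjusted p = 0.068). It passed without normoxia replicate 2 (adjusted p = 0.00063). The further probes of Kdm4c differed. The one at the start of the gene fell by 0.80 ± 0.15 (adjusted p = 0.002 over single probes). The one nearest the end changed by -0.32 ± 0.23 and did not pass (adjusted p = 0.27). Kdm4a read -0.57, -0.71 and -0.46, below hypoxia on all arrays, and its change of -0.24 ± 0.10 did not pass (adjusted p = 0.072), but did without normoxia replicate 2 (0.034).

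For H3K4, Kdm5b read 3.36, 3.52 and 3.34, below the hypoxia arrays and inside the normoxia range. Its other 2 probes fell by 0.81 ± 0.15 and 0.83 ± 0.17. The call of the probe used was lost without quercetin replicate 3 (-0.65, adjusted p = 0.05), with quantile normalization and with the deposited values. It was kept in 19 of 22 alternatives, with changes from -0.82 to -0.455 and adjusted p up to 0.081. For H3K27, Kdm6b read 2.94, 3.12 and 3.15, below hypoxia throughout. Its call was lost without any 1 of the hypoxia or quercetin arrays (adjusted p = 0.063 to 0.11) and without normoxia replicate 1 (0.05). The call was kept in 10 of 22 alternatives. The second Kdm6b probe changed by -0.30 ± 0.12 and did not pass (adjusted p = 0.064 over single probes). Kdm6a read -0.24, -0.26 and -0.45, below the hypoxia arrays, and its change of -0.24 ± 0.16 did not pass (adjusted p = 0.24).

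**Figure D3:**
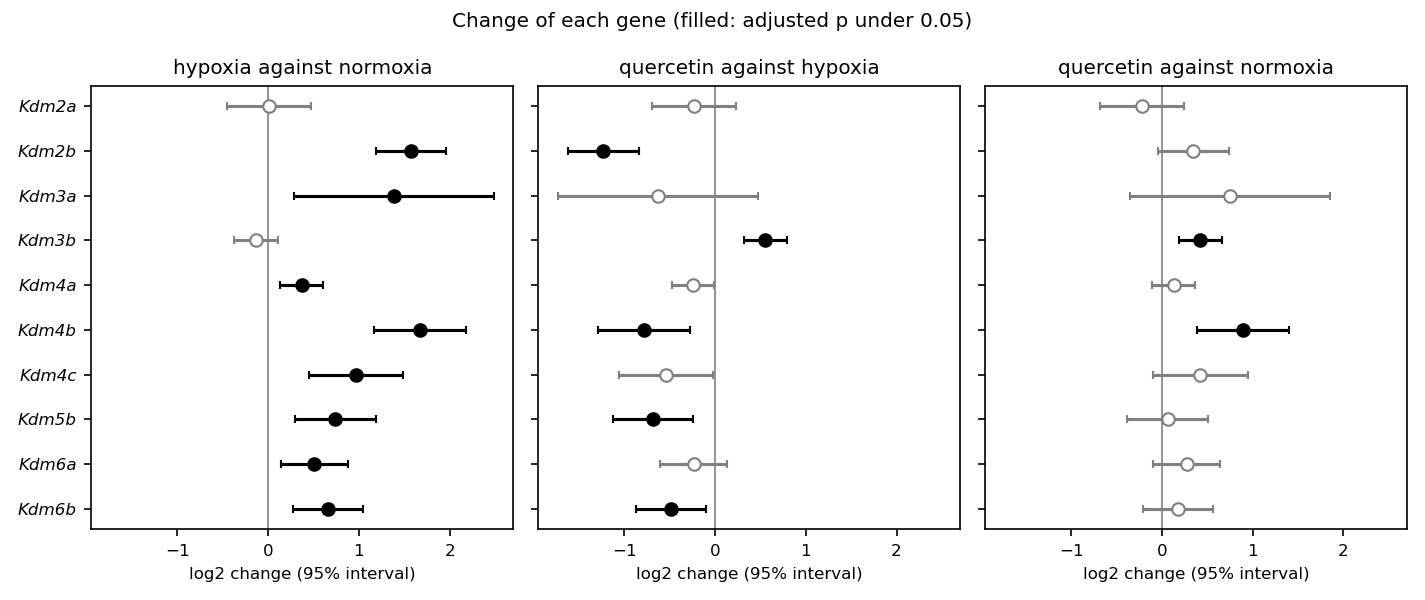
Log2 change of each gene with its 95% interval (x axis) in the 3 comparisons, filled where the adjusted p is under 0.05. In hypoxia against normoxia 8 points are filled, all to the right; in quercetin against hypoxia 4 are filled to the left and Kdm3b to the right; in quercetin against normoxia Kdm4b and Kdm3b are filled. All points are from the main fit. Under spike-in scaling, which is not plotted here, the change of Kdm4a in hypoxia against normoxia was -0.14.

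Against normoxia, cells in hypoxia with quercetin differed in 2 of the 10 genes. Kdm4b was higher by 0.89 ± 0.22 (adjusted p = 0.011) and Kdm3b by 0.42 ± 0.10 (adjusted p = 0.012). None was lower, except under spike-in scaling, where Kdm2a was called lower at -0.63 (adjusted p = 0.014). Over all genes 44.3% were called in this comparison, 23.0% higher and 21.3% lower, and 53.5% had groups that did not overlap, against 3 of the demethylases (Kdm3b, Kdm4b and Kdm4c). This comparison shares arrays with both others. Here the median change was 0.31 over the demethylases and 0.04 over all genes. The other 8 did not pass, which does not show that they were back at the normoxia level: the interval for Kdm3a ran from -0.35 to 1.86, and that for Kdm2b from -0.04 to 0.74. Kdm2b at 0.50 (adjusted p = 0.031) and Kdm6a at 0.46 (0.013) passed when normoxia replicate 3 was left out. Under spike-in scaling Kdm3b was at 0.01 (adjusted p = 0.95) and Kdm4b at 0.48 (0.052).

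Normoxia replicate 2 stood apart from the other normoxia arrays in several of these genes. It lay 1.83 below the mean of normoxia replicates 1 and 3 in Kdm3a, 0.91 below in Kdm4c, 0.75 below in Kdm5b and 0.59 to 0.62 below in Kdm2a, Kdm2b and Kdm6b, but 0.26 above in Kdm3b and 0.23 above in Kdm4a. Over all genes the median of that difference was -0.04. Over 14 textbook HIF targets, among them Car9, Egln1, Ankrd37 and Slc2a1, it was -1.79. Without that array 7 of the demethylases were called higher in hypoxia, Kdm6a being the one lost.

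The HIF targets were also read on each array, and a link between them and the demethylases was not tested. The median level of the HIF targets was 4.26, 2.44 and 4.35 in normoxia and 5.41, 5.43 and 5.45 in hypoxia. With quercetin it was 4.31, 4.97 and 4.48. The lowest normoxia array is replicate 2 and the highest quercetin array is replicate 2, as in Kdm3a. The same holds for Kdm4b, Kdm4c, Kdm5b and Kdm2a, of which Kdm2a did not pass in hypoxia (0.01). In Kdm2b, normoxia replicate 2 was also the lowest of its group, but quercetin replicate 2 lay between replicates 1 and 3. Of the 14 HIF targets 12 rose in hypoxia, with a median change of 1.94 (1.37 with slide as a block). With quercetin 7 were lower than in hypoxia and none higher. Over all genes 35.3% were called higher and 28.9% lower in hypoxia, and 26.9% and 31.5% with quercetin against hypoxia. P4ha2, a collagen prolyl hydroxylase, rose by 1.89 ± 0.19 and Stc2, a secreted glycoprotein, by 2.22 ± 0.18. Egln1, the prolyl hydroxylase that marks HIF for destruction, rose by 1.65 (adjusted p = 0.0081) and changed by -0.01 with quercetin in hypoxia (adjusted p = 0.99).

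**Figure D4:**
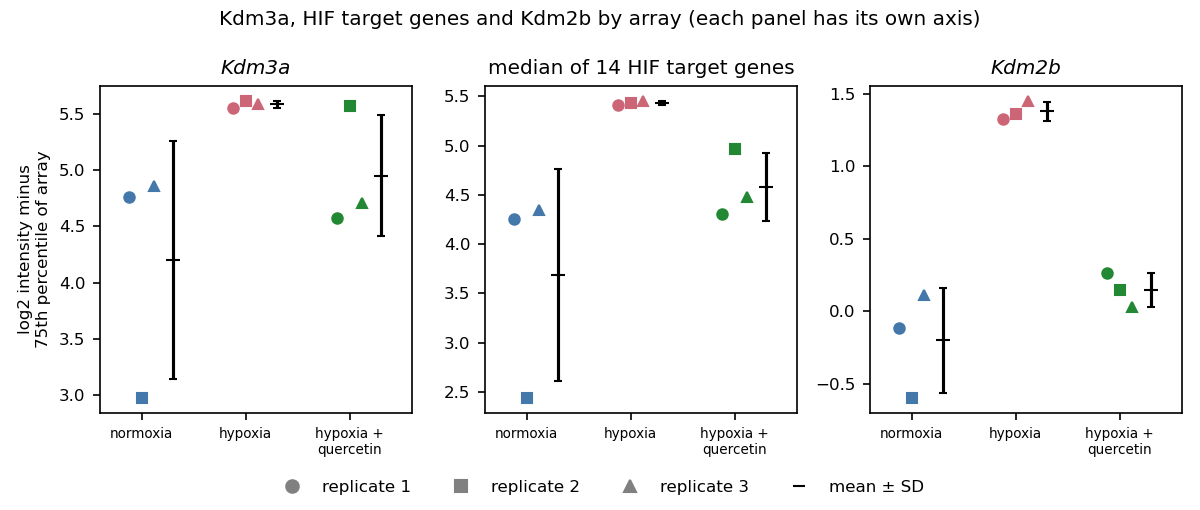
Level of Kdm3a, median level of the 14 HIF target genes and level of Kdm2b on each of the 9 arrays (y axes, log2 intensity minus the 75th percentile, each panel on its own scale), markers for replicates and bars for mean ± SD. Normoxia replicate 2 is lowest in all 3 panels, at 2.98 for Kdm3a and 2.44 for the HIF targets; quercetin replicate 2 is the highest of its group for Kdm3a and the HIF targets and not for Kdm2b.

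Slide and scaling bear on how many of these rises are called. With slide as a block, hypoxia was compared with normoxia within the second slide, where normoxia replicate 3 was the only normoxia array. Then Kdm4b at 1.64 (adjusted p = 0.0069), Kdm2b at 1.26 (0.0021) and Kdm4a at 0.48 (0.027) were called. Kdm3a at 0.73 (adjusted p = 0.39), Kdm4c at 0.64 (0.12), Kdm5b at 0.40 (0.19), Kdm6b at 0.35 (0.18) and Kdm6a at 0.14 (0.46) were not. Scaling to 8 spike-in probes moved the median of all genes in hypoxia against normoxia from 0.10 to -0.40, and the share of called genes that were higher from 55% to 19.8%. Against that shift Kdm4b was at 1.17 and Kdm2b at 1.07, both called higher, Kdm3b at -0.64 and Kdm2a at -0.49 were called lower, and Kdm6a was at 0.01. Kdm2b and Kdm4b were the members called higher under all alternatives that gave a value.

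**Figure D5:**
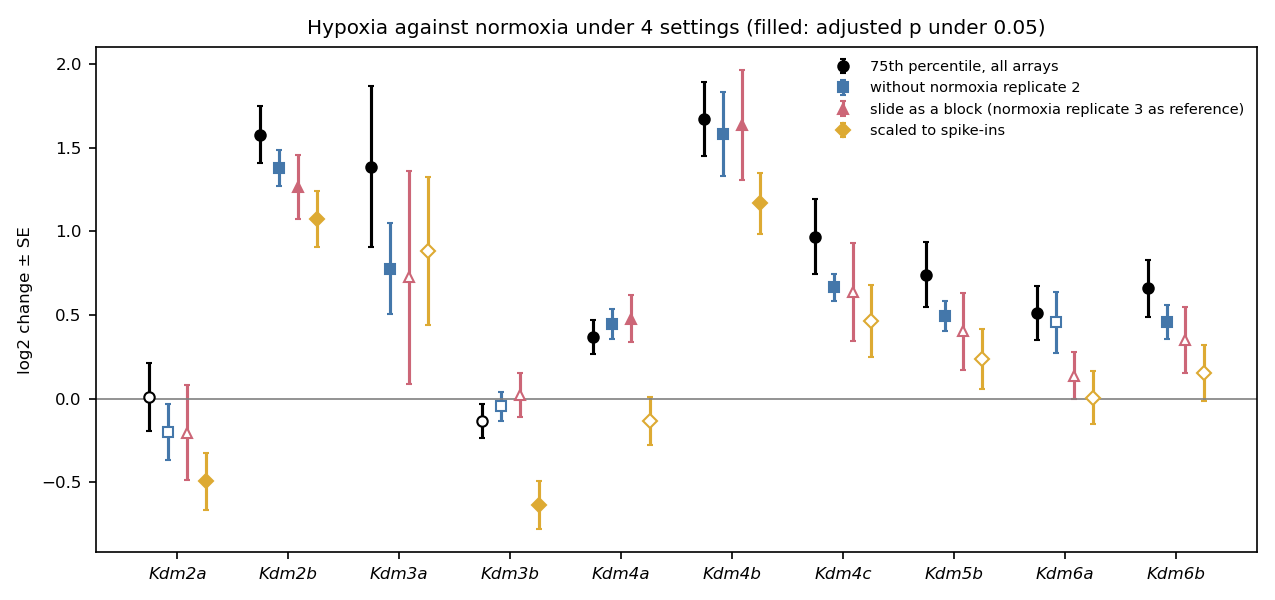
Log2 change ± SE of the 10 genes in hypoxia against normoxia (y axis) under 4 settings: all arrays scaled by the 75th percentile, without normoxia replicate 2, with slide as a block, and scaled to spike-in probes. Filled markers have an adjusted p under 0.05. Kdm2b and Kdm4b are filled in all 4, Kdm3a in 2, and under spike-in scaling Kdm4a, Kdm2a and Kdm3b lie below 0.

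The remaining JmjC proteins went both ways in hypoxia, where 35.3% of all genes were called higher and 28.9% lower. Of 21 listed, 13 were measured, of which 3 rose and 3 fell. The median of the 13 was 0.24, and -0.26 under spike-in scaling. Riox1, a nucleolar ribosomal oxygenase, fell by 2.10 ± 0.12 and its relative Riox2 fell by 1.09 ± 0.16. Jmjd7, a lysyl hydroxylase, rose by 1.31 ± 0.16. Phf8, a demethylase of H3K9, rose by 0.53 and Kdm5a, the paralog of Kdm5b, by 0.48 (adjusted p = 0.00079 and 0.0028), but both lay near 0 with spike-in scaling, at 0.02 and -0.03. Jmjd8 fell by 0.32 (adjusted p = 0.047). The difference between the 10 genes and these was not tested.

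With quercetin in hypoxia, 4 of those 13 rose and 3 fell, against 26.9% of all genes called higher and 31.5% lower. Riox1 rose by 1.66 ± 0.12, Kdm4d by 1.15, Hif1an, the asparaginyl hydroxylase that restrains HIF, by 0.55 and Riox2 by 0.52. Phf8 fell by 0.51, Hspbap1 fell by 0.83 and Jmjd7 fell by 0.42. Kdm1a and Kdm1b, the demethylases that use FAD rather than iron and 2-oxoglutarate, did not pass in hypoxia (-0.14 and -0.19), but with quercetin rose by 0.35 and 0.95 (adjusted p = 0.036 and 6.7e-05).

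Genes listed as methyltransferases of the marks these enzymes remove were also read, without a check that each acts on its mark. Over all genes 35.3% were called higher in hypoxia and 28.9% lower. Of 6 measured genes listed for H3K4, the mark Kdm5b removes, 4 rose in hypoxia and none fell. Kmt2a rose by 0.48, Kmt2b by 0.42, Smyd3 by 0.36 and Kmt2e by 0.34, all of which turned negative under spike-in scaling (-0.02 to -0.16). None of the 6 was called with quercetin against hypoxia. Of 4 enzymes for H3K9, which the Kdm3 and Kdm4 proteins act on, Setdb1 rose by 0.42 (-0.09 under spike-in scaling) and Ehmt1, Ehmt2 and Suv39h1 did not pass (-0.07, -0.01 and 0.08).

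Over all genes 35.3% were called higher and 28.9% lower in hypoxia, and 26.9% and 31.5% with quercetin against hypoxia. Of 9 measured parts of Polycomb repressive complex 2, the writer of H3K27 methylation, 4 rose in hypoxia and 1 fell. Phf1, an accessory subunit, rose by 1.48 ± 0.12 and Ezh1, a catalytic subunit, by 0.95 ± 0.09. Eed rose by 0.54 and Rbbp4 by 0.34 (0.03 and -0.17 under spike-in scaling), Rbbp7 fell by 0.60, and Ezh2, the other catalytic subunit, was at 0.34 without passing (adjusted p = 0.11). With quercetin 3 of the 9 fell against hypoxia and 2 rose: Phf1 fell by 1.02, Ezh1 fell by 0.48 and Rbbp4 fell by 0.24 (0.02 with quantile normalization), while Mtf2 rose by 0.40 and Rbbp7 by 0.27. Of 7 genes listed for H3K36, 2 rose in hypoxia, Setd2 by 0.56 and Smyd2 by 0.55 (both 0.05 under spike-in scaling). In the same list 3 fell: Nsd2 fell by 0.95, Setmar fell by 0.73 and Nsd3 fell by 0.24.

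The proteins that work with Kdm2b went both ways in hypoxia, where 35.3% of all genes were called higher and 28.9% lower. Of 9 partners in the Polycomb complex of Kdm2b, 3 rose in hypoxia and 4 fell. Rnf2, the ubiquitin ligase, rose by 1.27 ± 0.17, Pcgf1, the subunit that defines the complex, by 0.56 and Bcorl1 by 0.50 (0.06 and -0.01 for Pcgf1 and Bcorl1 under spike-in scaling). Skp1, which binds the F-box of Kdm2b, fell by 1.28 ± 0.13, and Rybp fell by 0.66, Usp7 fell by 0.63 and Ring1 fell by 0.30. With quercetin Pcgf1 fell by 0.70 and Rnf2 fell by 0.96, as Kdm2b fell, while Skp1 rose by 1.15. Of 8 measured partners of Kdm6a in its COMPASS complex, Dpy30 and Ash2l rose in hypoxia, by 0.53 and 0.42 (0.03 and -0.08 under spike-in scaling), and Paxip1 fell by 1.16 ± 0.11.

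The genes whose level most resembled each demethylase over the 9 arrays were taken by Pearson correlation among 12072 genes with a symbol. For Kdm2b these were Gadd45b (r = 0.996), Numa1 (0.995) and Prkab2 (0.993), and for Kdm3a Nampt (0.994), Acvr2b (0.991) and Ube2g1 (0.987). For Kdm4b they were Rpl28l1, Tpt1 and Rhof (each 0.994), for Kdm4c Dennd2c (0.998), Klc4 (0.994) and Asap1 (0.993), and for Kdm5b Zfp395 (0.992), Tnk2 and Ankrd37 (both 0.991). For Kdm6b they were Vldlr (0.987), Rara (0.986) and Uaca (0.983), for Kdm6a Hand1 (0.983), for Kdm4a Yif1a (0.991), for Kdm3b Gtf2e1 (0.991) and for Kdm2a Gphn (0.984). All points share the 9 arrays, their 3 groups and their slides, so such values are a description only. Among the demethylases themselves Kdm5b and Kdm6b were closest (r = 0.972 over 9 arrays), followed by Kdm4c with Kdm6b (0.964) and with Kdm3a (0.948). Kdm3b ran against all 9 others, from -0.16 with Kdm4a to -0.70 with Kdm2a.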

How the data were processed

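RNA of 9 samples was hybridised to 1-colour arrays, 3 per group. Per the file headers, Feature Extraction 10.7.3.1 gave the deposited spot intensities, background-subtracted, with probes placed on build rn4. The labels describe a microRNA labelling kit, while the arrays hold probes for messenger RNA. The deposited log2 value table, of unstated origin, served as an alternative.

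Outlier spots (71 to 148 per array) were set missing, the log2 intensity was taken and the 75th percentile of non-control probes subtracted. A probe was kept where every array of 1 group or more had it well above background (26655 of 41012). Genes were named through RefSeq's GRCr8 table (18495 probes by accession, 2903 by symbol, 390 by synonym, 384 by gene number, which named Kdm3b; the other 18840 kept the file's name). Where a gene had several kept probes, the one with the highest mean was used.

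Group means of all arrays were fitted together in limma 3.58.1 under R 4.3.3 (residual degrees of freedom 6, prior 2.3). Tests were two-sided and adjusted by Benjamini-Hochberg over 22084 genes. The fit was tested on simulated data. With 3 arrays per group, their number limits the precision. Named genes were every member with each probe, up to 4 genes with the lowest adjusted p per list, all genes where a count was 5 or fewer, and the 3 nearest patterns per member. Markers of smooth muscle and other cells were read for detection. Kdm2b's and Kdm6a's partners, methyltransferases, other demethylases, HIF targets and 2-oxoglutarate enzymes were the lists. Members and lists were chosen with earlier results of these data known. Alternatives covered background, scaling, filter, probe choice, slide, scan day, replicate number and left-out arrays. Some genes the rule allows are not reported here. Values of list genes under other scalings were added after seeing the data.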

Additional observations from a re-analysis of the deposited data

How the results depend on the processing

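Over the 3 comparisons, 667 values of single demethylase genes were recomputed under up to 23 alternatives. Direction and side of the threshold were kept in 582, the call was lost in 51, gained in 10, and the direction turned in 24. The cause was not tested where none is named. In hypoxia against normoxia, 8 demethylases became 4 with spike-in scaling (2 higher, 2 lower) and 3 with slide or with scan day as a block, which leave 1 normoxia array for the comparison, and 6 to 8 with 1 array left out; all genes called went from 14179 to 7865 with normexp, and to 12320 to 14397 with 1 array left out. In quercetin against hypoxia, 5 became 3 with quantile normalization and with the deposited values, and 3 to 7 with 1 array left out; all genes went from 12898 to 7303 with normexp (10985 to 14021 with 1 array left out). In quercetin against normoxia, 2 became 0 with normexp (2 at an unadjusted p under 0.05 in limma), 1 with spike-in scaling (Kdm2a, lower), 1 with probes well above background on all 9 arrays (Kdm4b dropped out) and with scan day as a block, and 2 to 4 with 1 array left out; all genes went from 9781 to 5003 with normexp and 5807 with scan day (7686 to 9868 with 1 array left out).

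Turned values in hypoxia against normoxia were those of Kdm2a, from 0.01 to -0.012 with normexp, -0.04 with median scaling, -0.024 with quantile normalization, -0.49 with spike-ins, -0.20 with slide or scan day as a block, -0.005 with slide as a random block, -0.20 to 0.12 with 1 array left out (-0.20 without normoxia replicate 2) and -0.025 with the deposited values; Kdm3b, 0.021 with slide or scan day as a block; and Kdm4a, -0.14 with spike-ins. In quercetin against normoxia they were Kdm2b (-0.062) and Kdm4a (-0.28) with spike-ins; Kdm5b, -0.10 with normexp, -0.004 with median scaling, -0.35 with spike-ins, -0.28 with scan day and -0.19 to 0.23 with 1 array left out (lowest without normoxia replicate 2); Kdm6a, -0.14 with spike-ins and -0.10 with scan day; and Kdm6b, -0.23 with spike-ins, -0.13 with scan day and -0.027 to 0.33 with 1 array left out (lowest without normoxia replicate 2).

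Replicate numbers are shared between groups, and same-numbered arrays did not deviate together (r from -0.27 to 0.02 over genes). Array-wide differences also enter these deviations, so they cannot show whether the samples were paired. The main fit treated the samples as unpaired. With the replicate block 7, 5 and 2 demethylases and 13188, 11964 and 8503 genes were called in the 3 comparisons, in the order above. Signal over background limits Kdm4b, which was not well above background on 1 array. Slide as a fixed block could not be fitted for the quercetin comparisons, since the quercetin slide holds no other group; as a random block it left 4 demethylases called against hypoxia and 2 against normoxia.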

Other observations

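The enzymes that make and use 2-oxoglutarate, succinate and fumarate, the co-substrate of JmjC demethylases and 2 acids known to inhibit them, were all measured, 18 of 18. In hypoxia against normoxia 4 rose and 3 fell, but 0 rose and 12 fell under spike-in scaling, 2 rose and 6 fell with quantile normalization, and 3 rose and 0 fell with slide as a block. Idh2, the mitochondrial NADP-dependent isocitrate dehydrogenase, rose by 0.56, Sdha, a succinate dehydrogenase subunit, by 0.52, Fh, fumarate hydratase, by 0.51 and Idh3g by 0.46, and these were 0.06, 0.01, 0.01 and -0.04 under spike-in scaling. Among those that fell, Ogdh, the 2-oxoglutarate dehydrogenase, fell by 0.64 and Sdhc fell by 0.29. Over all genes 35.3% were called higher in hypoxia against normoxia and 28.9% lower.

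With quercetin in hypoxia 5 of the 18 rose and 7 fell, against 26.9% of all genes called higher and 31.5% lower. Idh2 fell by 1.26 (adjusted p = 4.8e-05) and Fh fell by 0.70 (adjusted p = 0.00013), while Ogdh rose by 0.66 (0.003). These use the hypoxia arrays of the comparison before, so both sets of values share them. Of the TET dioxygenases, which oxidise methylated DNA with the same co-substrates, Tet3 fell by 0.56 in hypoxia (adjusted p = 0.0069) and Tet1 did not pass (0.60, adjusted p = 0.15). With quercetin Tet3 rose by 0.52 and Tet1 fell by 1.27 (adjusted p = 0.011 and 0.012). The Tet1 change was -0.40 (adjusted p = 0.31) with normexp correction.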
